A study of Mus musculus with 3 samples.

Results

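HOX genes encode homeodomain transcription factors that lie in the clusters Hoxa, Hoxb, Hoxc and Hoxd and are numbered by paralogue group from 1 to 13. They were examined in LLC/luc cells, which are Lewis lung carcinoma cells of C57BL/6 origin that carry luciferase, and in its bone-derived sub-lines, LLC/luc BM1st and LLC/luc BM2nd. The members were all genes whose symbol in the platform annotation was Hoxa, Hoxb, Hoxc or Hoxd followed by digits only. By this rule 38 genes were found among 19057 genes with a named probe, read by 57 probes on Illumina mouse whole-genome bead arrays. BM1st cells had been cultured from bone lesions that arose after parental cells were injected into the left ventricle of C57BL/6 mice, and BM2nd cells came from a further round in which BM1st cells were injected. All lines were grown in DMEM with fetal bovine serum and carried luciferase, and no other treatment or genotype distinguished them. RNA of each line was hybridised to 1 array, 3 arrays in all, so no value has a replicate, differences between lines have no replicate check, and no p-value is given. Each bone-derived line was 1 culture from marrow in which host cells had been present, and passage through a mouse, origin in bone and later culture cannot be told apart between the lines. The labels call all lines osteotropic in the cell type entry, and the subtype entry tells them apart.

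In the embryo, genes near the start of each HOX cluster, with low group numbers, are active toward the head, and genes of higher groups are active progressively toward the tail. The pattern is kept in part in adult mesenchymal cells, whose set of active HOX genes reflects the place in the body from which they came. Developing lung uses genes of the low groups of the Hoxa and Hoxb clusters, whereas the posterior genes of Hoxa and Hoxd, groups 9 to 13, pattern the limb from shoulder and hip to digits. HOX proteins bind DNA together with homeodomain cofactors of the PBX and MEIS families, and Polycomb and Trithorax proteins hold the clusters silent or active.

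Promoter sequences are shown for the genes whose probes gave the largest ratio of BM2nd to BM1st cells or the brightest probe of a cluster, to show what lies before their start. The sequences are from RefSeq, assembly GRCm38.p6, and run from 250 bases before to 50 bases after the gene start, 5′ to 3′ on the strand of the gene. Capitals mark matches on either strand to TGATNNAT, the site shared by PBX and HOX proteins, or to TTTATG, a site of the CDX proteins, and no letters in capitals mean only that neither run of letters occurs in the window.
Hoxa2, chr6:52164782-52165081, minus strand: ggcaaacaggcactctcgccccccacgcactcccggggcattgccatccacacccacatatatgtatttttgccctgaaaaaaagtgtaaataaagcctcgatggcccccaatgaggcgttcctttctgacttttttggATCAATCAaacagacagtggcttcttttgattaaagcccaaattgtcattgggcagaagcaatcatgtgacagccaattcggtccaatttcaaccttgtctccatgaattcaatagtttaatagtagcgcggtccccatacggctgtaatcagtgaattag
Hoxa5, chr6:52204538-52204837, minus strand: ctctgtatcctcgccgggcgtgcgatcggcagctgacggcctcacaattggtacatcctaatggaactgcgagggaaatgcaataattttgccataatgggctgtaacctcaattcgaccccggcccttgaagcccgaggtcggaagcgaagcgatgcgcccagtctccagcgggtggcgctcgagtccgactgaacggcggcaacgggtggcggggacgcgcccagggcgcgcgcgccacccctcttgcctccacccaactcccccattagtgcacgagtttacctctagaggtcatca
Hoxd8, chr2:74704365-74704664, plus strand: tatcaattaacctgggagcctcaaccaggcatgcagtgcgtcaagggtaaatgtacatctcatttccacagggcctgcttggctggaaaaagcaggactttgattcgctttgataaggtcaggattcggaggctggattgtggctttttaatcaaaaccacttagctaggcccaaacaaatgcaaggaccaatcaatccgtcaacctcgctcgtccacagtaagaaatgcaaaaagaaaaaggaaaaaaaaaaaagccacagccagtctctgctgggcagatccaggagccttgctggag
The Hoxa2 window held 1 match to TGATNNAT and no match to TTTATG, and the Hoxa5 and Hoxd8 windows held neither. Of the 38 genes, 22 had a window in the table, 24 windows in all. TGATNNAT was found in 4 of these 24 windows, 16.7%, against 8.85% of all 32851 windows of the same length, in Hoxa2, Hoxb1, Hoxb8 and Hoxd11. TTTATG was found in 5 of the 24, 20.8%, against 11.9% of all windows, in Hoxa7, Hoxb8, Hoxd3, Hoxd4 and Hoxd11. Hoxb7 and Hoxc6 met the same criterion for display but had no window, so their promoters are not shown. Hoxc6 also had the largest ratio to parental cells among HOX genes in both bone-derived lines.

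The values are linear intensities from the authors whose distribution is the same on each array, as quantile normalization leaves it, with a background that appears not to have been subtracted, so the ratio of a dim gene is smaller than the change in its RNA. Background on each array was set by 1504 probes for olfactory or vomeronasal receptors, which belong to sensory cells of the nose, as their 95th percentile, at 109.5 in parental, 109.8 in BM1st and 107.2 in BM2nd cells. Where a gene had several probes, the one of highest mean log2 intensity was used, and because probes differ in brightness the intensities of different genes are not compared as levels of RNA. Of the 38 HOX genes 22 lay above background in parental cells, 20 in BM1st cells and 21 in BM2nd cells, or 57.9%, 52.6% and 55.3%. Among all genes with a named probe 50.7%, 50.1% and 52.6% lay above background, so the share of HOX genes was close to that of genes in general. On all 3 arrays 18 HOX genes were above background, on some arrays 6, and on none 14. The 14 were Hoxa3, Hoxa6, Hoxa9, Hoxa10, Hoxa11, Hoxb1, Hoxb8, Hoxb9, Hoxb13, Hoxc5, Hoxc11, Hoxc12, Hoxd1 and Hoxd12, with intensities from 79.9 to 108.7. Nearest to the limit in parental cells were Hoxb6, just above it at 110.0, and Hoxa3, just below it at 108.7. A further 8 genes never exceeded 1.2 times background on any array, and these are Hoxb3, Hoxb6, Hoxc4, Hoxc8, Hoxc10, Hoxc13, Hoxd11 and Hoxd13. Their detection is therefore uncertain, and with background at the 99th percentile of the receptor probes the counts were 15, 15 and 19.

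**Figure D1:**
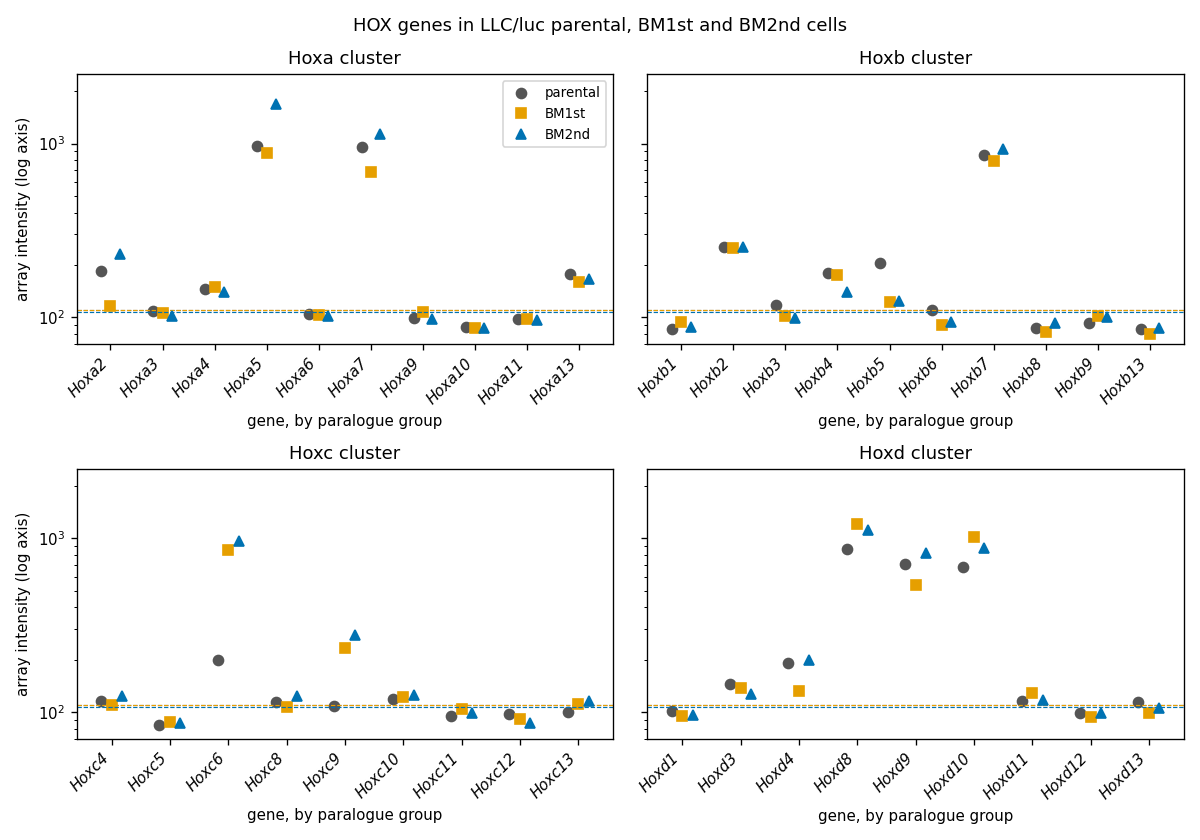
Array intensity on a log axis for the 38 HOX genes, 1 panel per cluster and genes in order of paralogue group, with 1 point per gene for parental, BM1st and BM2nd cells (1 array each) and dashed lines at the background of each array. Hoxc6 and Hoxc9 are the genes whose parental point lies farthest below both points of the bone-derived lines, while Hoxd8, Hoxd9 and Hoxd10 are above background in every line.

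HOX genes of all 4 clusters were above background in the parental line. Intensities over 3 times background on every array were seen for 6 genes, Hoxa5, Hoxa7, Hoxb7 and Hoxd8 of the central groups and Hoxd9 and Hoxd10 of the posterior groups. By cluster, 5 of 10 Hoxa, 6 of 10 Hoxb, 4 of 9 Hoxc and 7 of 9 Hoxd genes were above background in parental cells. In BM2nd cells the counts were 5, 4, 6 and 6 in the same order. By position along the clusters, 8 of 11 anterior genes (groups 1 to 4), 8 of 11 central genes (groups 5 to 8) and 6 of 16 posterior genes (groups 9 to 13) were above background in parental cells. In BM2nd cells these were 7, 7 and 7. Beside these counts, 50.7% of all genes with a named probe were above background in parental and 52.6% in BM2nd cells. Genes above and below background lay side by side. Hoxa6, between Hoxa5 and Hoxa7, had intensities of 104.9, 102.8 and 102.2 in parental, BM1st and BM2nd cells. The annotated spans of Hoxa3 and Hoxa5, Hoxb3 and Hoxb4, Hoxd3 and Hoxd4, and Hoxd10 and Hoxd11 overlap, and whether a probe reads only the named gene was not tested.

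The largest differences from parental cells were in the Hoxc cluster. Hoxc6, which takes part in thoracic patterning and in the mammary gland, was at an intensity of 198 in the parental line, 861 in BM1st and 962 in BM2nd. Both bone-derived lines were thus well above the parental line and differed little from each other. The log2 ratio to parental cells was 2.12 in BM1st cells (4.34-fold) and 2.28 in BM2nd cells (4.85-fold), and it was 0.16 between the bone-derived lines. Of the 10579 genes above background in parental or BM2nd cells, Hoxc6 had rank 33 from the highest BM2nd/parental ratio, beside a robust SD of 0.30 over all these genes. With the background subtracted the log2 ratios of Hoxc6 were 2.86 and 3.04. Hoxc9, which specifies thoracic identity in the spinal cord and ribs, was just below background in parental cells, at 108 (background 109.5), and stood at 235 in BM1st and 276 in BM2nd cells. As a bound Hoxc9 was at least 2.15-fold higher in BM1st cells and at least 2.52-fold higher in BM2nd cells than in parental cells, with measured log2 ratios of 1.12 and 1.35. Each of these genes was read by 1 probe, so no other probe bears on the difference.
None of the genes around them passed the threshold. Hoxc8, which lies between Hoxc9 and Hoxc6, had intensities of 115, 107 and 123, close to background on every array. On the other side of Hoxc6, Hoxc5 was not above background at 84.6, 88.1 and 86.7, and Hoxc4 was at 115, 110.3 and 124. Beyond Hoxc9, Hoxc10, active in hindlimb and lumbar motor neurons, was at 119, 121 and 126. Its other probe stayed below background in every line. Hoxc11 and Hoxc12 were not above background, and Hoxc13, a gene of hair and nail, was at 100.5, 111 and 116, barely above background in the bone-derived lines.

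For each pair of lines the genes above background in either line were compared, and a log2 ratio past 1 or -1 was taken as higher or lower. Of 24 HOX genes compared, 2 were higher in BM2nd than in parental cells, Hoxc6 and Hoxc9, and none was lower. That is 8.33% higher, beside 1.83% of all 10579 genes compared that were higher and 1.53% that were lower. In BM1st cells the same 2 genes of 24 were higher than in parental cells and none was lower, beside 2.04% and 1.79% of all 10377 genes. Both comparisons share the parental array, and the presence of the same genes in both is not independent evidence. Between BM2nd and BM1st cells none of 21 HOX genes passed the threshold in either direction, beside 3.01% higher and 1.78% lower of all 10562 genes. At a threshold of 1.5-fold 5 of the 21, Hoxa2, Hoxa5, Hoxa7, Hoxd4 and Hoxd9, were higher in BM2nd cells and none was lower, beside 8.54% and 7.11% of all genes. The median log2 ratio of the HOX genes was 0.090 for BM2nd/parental, -0.088 for BM1st/parental and 0.063 for BM2nd/BM1st, beside medians over all genes compared of 0.0071, -0.0079 and -0.012. Apart from Hoxc6 and Hoxc9, the ratios of BM2nd to parental cells lay between -0.73 (Hoxb5) and 0.81 (Hoxa5). The receptor probes, which show the scatter near background, had BM2nd/parental log2 ratios between -0.33 and 0.34 with an SD of 0.12, and probes of the same gene differed by a median SD of 0.14. The ratios of the receptor probes lay between -0.46 and 0.48 for BM1st/parental and between -0.51 and 0.41 for BM2nd/BM1st, each with an SD of 0.12.

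**Figure D2:**
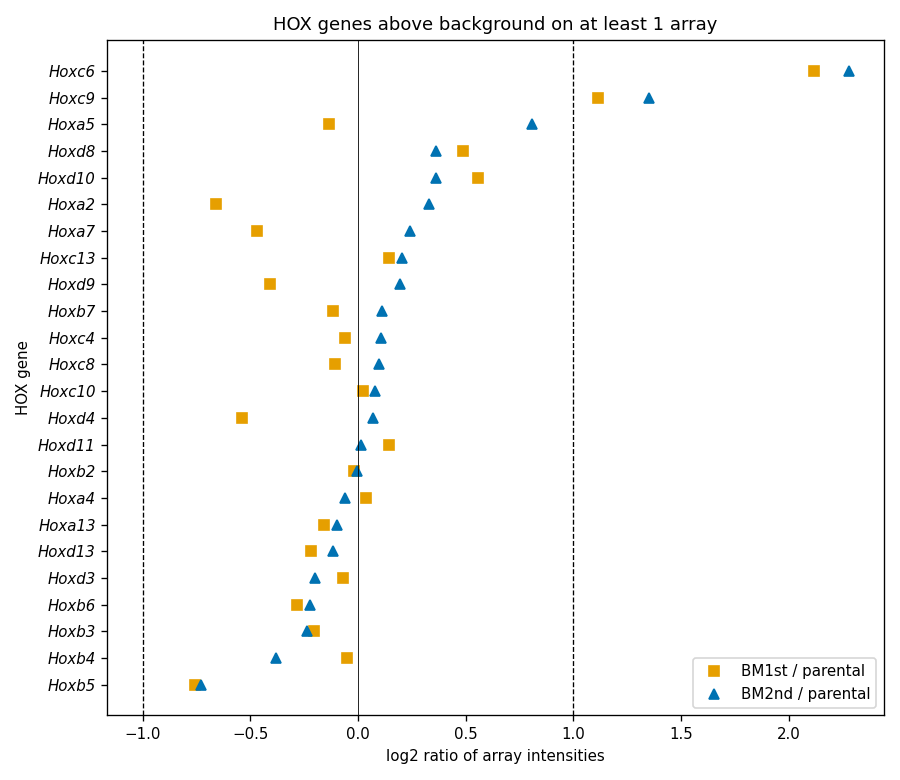
Log2 ratio of array intensities to parental cells (horizontal axis) for the 24 HOX genes above background on at least 1 array, with squares for BM1st and triangles for BM2nd cells, 1 array each; dashed lines mark 1 and -1. Hoxc6, at 2.12 and 2.28, and Hoxc9, at 1.12 and 1.35, are the 2 genes to the right of the upper line, and both ratios of a gene share the parental array.

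Of the 9 genes of Hoxa and Hoxd groups 9 to 13, 5 were above background in parental cells and 4 in each of BM1st and BM2nd cells. These are 55.6%, 44.4% and 44.4%, close to the 50.7%, 50.1% and 52.6% of all genes with a named probe. None of the 9 was above background in a bone-derived line without being so in parental cells. Hoxd9, active in the upper limb segment, had intensities of 716, 540 and 819 in parental, BM1st and BM2nd cells, and its other probe gave 578, 424 and 633. On both probes BM1st cells were the lowest line, and the log2 ratio of BM2nd to parental cells was 0.19 and 0.13. Hoxd10, which patterns the hindlimb and its motor neurons, was at 688, 1012 and 883, log2 ratios of 0.56 in BM1st and 0.36 in BM2nd cells. These genes were far above background before any passage through bone.
Hoxa13, needed for digits, was above background in every line at 178, 159 and 166. Of its 3 probes 1 was not above background on any array, and another was above it only in the bone-derived lines, at 102, 112 and 120, while the probe used here gave a log2 BM2nd/parental ratio of -0.10. Hoxd11, which with Hoxa11 builds the lower limb segment that includes the tibia, was close to background at 116, 129 and 117. Hoxa11 was not above background on any array, at 97.2, 97.2 and 96.8, and neither was Hoxc11, which stood highest in BM1st cells, at 104. Hoxd13, active in digits, was above background in parental cells alone, by a small margin, at 114, 98.3 and 105. Hoxa9, Hoxa10 and Hoxd12 were not above background in any line. With background at the 90th percentile of the receptor probes, Hoxa9 was above it in BM1st cells, at 107.5 against 104.3, and not in parental or BM2nd cells. With background at the 99th percentile, Hoxd11 and Hoxd13 were no longer above it in parental cells, 3 limb-type genes were above it there, and Hoxd11 was above it in BM1st cells alone, at 129 against 127.8.
Of the 7 posterior genes of Hoxb and Hoxc, 1 (14.3%) was above background in parental cells and 3 (42.9%) in each bone-derived line, Hoxc9, Hoxc10 and Hoxc13. Of these Hoxc9 alone exceeded 2 times background, in both bone-derived lines.

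**Figure D3:**
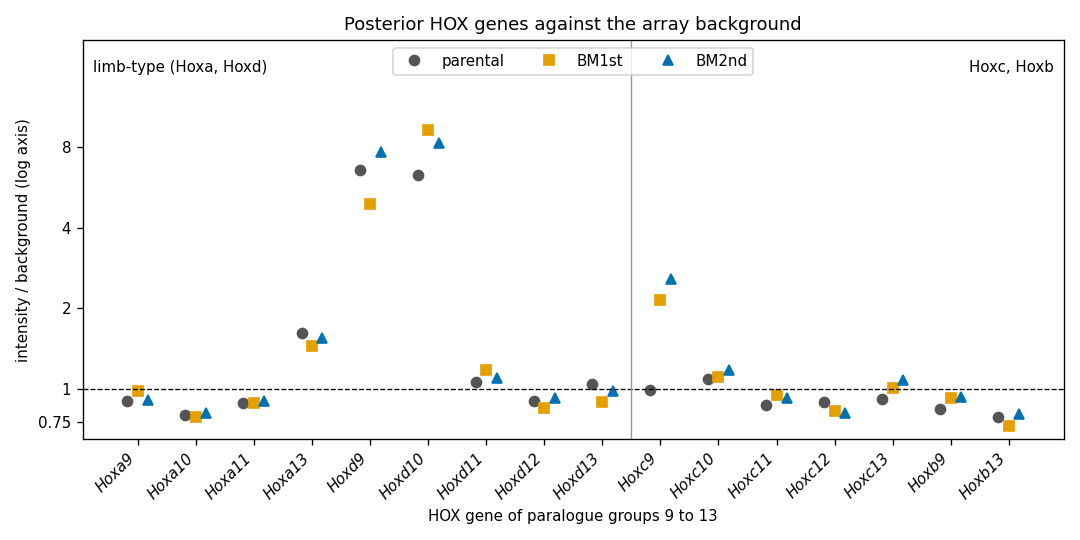
Intensity divided by the background of the same array (log axis) for the 16 HOX genes of paralogue groups 9 to 13, with the 9 limb-type genes on the left, 1 point per line and 1 array each; the dashed line marks background. Hoxd9 and Hoxd10 stand over 4 times background in every line, and Hoxc9 is the gene that moves from below 1 in parental cells to over 2 in both bone-derived lines.

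Lung-type HOX genes were above background in every line as well. Of the 10 genes of Hoxa groups 2 to 5 and Hoxb groups 1 to 6 with a probe, 8 were above background in parental cells and 6 in each of BM1st and BM2nd cells. These are 80%, 60% and 60%, beside 50.7%, 50.1% and 52.6% of all genes with a named probe. Hoxa5, required for normal lung and trachea development, had intensities of 962, 878 and 1685. It was nearly alike in parental and BM1st cells and highest in BM2nd cells, with log2 ratios of 0.81 to parental and 0.94 to BM1st cells, just inside the threshold. Hoxa2, which patterns the hindbrain and the branchial arches, had intensities of 184, 117 and 232. Its BM2nd/BM1st log2 ratio of 0.99 was the largest among HOX genes, and its other probe, at 168, 140 and 193, showed the same order of lines with smaller differences. Hoxb5, active in the branching lung, was at 206 in parental cells and at 122 and 124 in BM1st and BM2nd cells. The log2 ratio of Hoxb5 to parental cells was -0.76 in BM1st and -0.73 in BM2nd cells, and -1.94 and -1.81 with the background subtracted. Hoxb4, known for the expansion of blood stem cells, was at 181, 174 and 139, and Hoxb2, a hindbrain gene, at 253, 250.3 and 253. Hoxa4 was at 145, 149 and 140. Hoxb3 and Hoxb6 were slightly above background in parental cells alone, Hoxb3 at 117, 102 and 99.7 and Hoxb6 at 110.0, 90.3 and 94.3.
Of the central genes, Hoxa7 was at 954, 690 and 1128. Hoxb7, a gene of the ureteric bud, was at 864, 796 and 934, and its other probe at 460, 428 and 480, so no line stood apart on either probe. Hoxd8 was at 867, 1214 and 1115, with log2 ratios of 0.49 in BM1st and 0.36 in BM2nd cells. Hoxd9, the next gene of that cluster, had its lowest intensity in BM1st cells on both probes, as given above. Hoxd4 was at 191, 131 and 200.4 and Hoxd3 at 145, 138 and 126.

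Of 8 genes of the HOX cofactors PBX, MEIS and PKNOX with a named probe 6 were above background in parental, 7 in BM1st and 8 in BM2nd cells. Among all genes with a named probe the shares above background were 50.7%, 50.1% and 52.6%. Of the 8 cofactor genes 1 was higher in BM2nd than in parental cells, beside 1.83% of all genes compared. That gene was Meis1, at 987 in parental, 1685 in BM1st and 2067 in BM2nd cells, a log2 ratio of 1.07 to parental cells, and Meis2 was at 1422, 919 and 1688. The ratio of Meis1 was 0.54 on another of its 3 probes and 0.54 averaged over all 3, below the threshold. Pknox2 was at 95.1, 107 and 120.5 and Pbx4 at 92.3, 118 and 110.0, both close to background. Of 13 HOX activators 12 were compared and 1 was lower in BM2nd than in parental cells, beside 1.53% of all genes compared. It was Cdx2, a homeodomain factor that switches on central and posterior HOX genes in the embryo. Cdx2 was at 236.5, 137 and 104, not above background in BM2nd cells and at least 2.21-fold lower there. Kdm6b, a demethylase that removes a Polycomb mark, had log2 ratios of -0.97 and -1.07 on the 2 brightest of its 3 probes and -0.20 on the third, which was at 138, 115 and 120, and Kmt2a, the Trithorax-type methylase of HOX genes, was at 1648, 1680 and 1906. None of 19 Polycomb genes compared was higher or lower (median log2 ratio 0.033), with Ezh2 at 329.6, 227 and 384, and the largest ratio was that of Cbx6, at 1628, 1868 and 2692. Of 15 retinoid signalling genes with a probe, 6 were compared and none was past the threshold, and the enzyme genes Aldh1a1, Aldh1a2 and Aldh1a3 were not above background.
Other positional factors were mixed in type. Of 21 limb identity factors with a probe 8 were above background on at least 1 array. By line 7, 7 and 8 were above it, beside 50.7%, 50.1% and 52.6% of all genes with a named probe. Among the 8 were Prrx1 at 649, 606 and 580, Gli3 at 1482, 1543 and 2537 and Tbx4, a gene of both hindlimb and lung mesenchyme, at 188, 228 and 211. The other probe of Tbx4 was not above background in any line. The forelimb factor Tbx5 and the hindlimb factor Pitx1 were not above background on any array. None of the 8 was past the threshold in BM2nd cells. Of 20 lung identity factors 12 were above background on at least 1 array, and none was past the threshold in BM2nd cells. Sox9 was higher in BM1st than in parental cells, at 2160, 6746 and 4010, and Irx5 was at 275, 237 and 191. The lung lineage factor Nkx2-1 and the surfactant genes Sftpa1, Sftpb, Sftpc and Sftpd were not above background on any array. Of 8 epithelial markers Krt8 and Krt18 were far above background and Epcam was not above it, and none was past the threshold against parental cells. Napsa, which encodes an aspartic protease of alveolar cells, was at 132.6, 109.8 and 95.8, above background in parental cells, where 2 of its 3 probes were above it. Foxa1, a factor of lung and other endoderm, was at 105.2, 116 and 188, and Foxa2 was slightly above background in every line at 111.2, 117 and 115. Foxa1 was thus not above background in parental cells, and the other probe of Foxa2 was not above it in any line. Sox2 and Scgb1a1 were not above background on any array either. Of the 20 lung identity factors 8, Nkx2-1 and the surfactant genes among them, were at background in every line. By line 10, 9 and 10 were above background, beside 50.7%, 50.1% and 52.6% of all genes with a named probe. Among those above it in every line were Gata6 at 266, 429 and 300.1, Irx2 at 349, 456 and 255.5, Foxp1 at 289, 282 and 267 and Foxf1 at 153, 129 and 142. Gata6 and Foxp1 each had another probe that was not above background in any line.

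**Figure D4:**
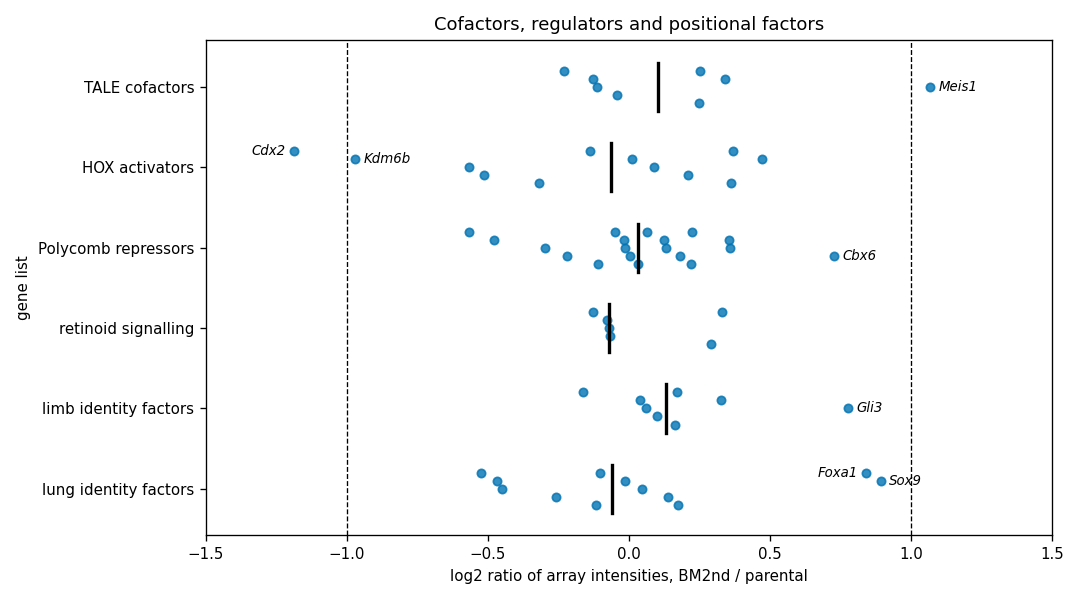
Horizontal axis: log2 ratio of intensities, BM2nd over parental cells, for the genes of 6 lists that were above background in either line, 1 point per gene and 1 array per line; black bars are list medians and dashed lines mark 1 and -1. Meis1, at 1.07, and Cdx2, at -1.19, are the points outside the dashed lines, and since Cdx2 was not above background in BM2nd cells its bound is at least 2.21-fold lower.

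Some markers of host cells that the cultures could hold differed between the lines too. Beside each count above background given here, 50.7%, 50.1% and 52.6% of all genes with a named probe were above it in parental, BM1st and BM2nd cells. Of 17 fibroblast and marrow stroma markers 11 were above background in parental, 11 in BM1st and 13 in BM2nd cells, and their summed intensity was 13283, 17179 and 28260. The extracellular matrix genes Lum, at 198, 1742 and 6133, Dcn, at 1027, 6259 and 6174, and Dpt, at 142, 418 and 2213, made up 1366, 8419 and 14520.2 of these sums, and the other 14 markers 11916, 8760.1 and 13740.0. The median log2 ratio of the list to parental cells was 0.098 over 12 genes compared in BM1st and 0.47 over 14 in BM2nd cells. Of these 4 and 5 were higher, beside 2.04% and 1.83% of all genes, and 1 and none lower, beside 1.79% and 1.53%. Col1a1 was at 96.0, 120 and 412 and Pdgfra at 258, 851 and 1067.5, with its other probe at 108.8, 110.5 and 123.9. Col1a2, at 110, 106.8 and 103.8, Cxcl12, at 124.6, 128.4 and 119.9, and Lepr, at 104.5, 106.7 and 109.4, were close to background. Kitl was at 121.8, 135.4 and 111.3. Pdgfrb, Thy1 and Postn were not above background on any array. Of 13 leukocyte markers with a probe 2, 7 and 6 were above background, with summed intensities of 1455, 3134 and 1912. Among these markers Ptprc, at 102, 111 and 104, Csf1r, at 115.5, 128 and 116, and Elane, at 99.3, 112 and 117, were close to background. Of 7 leukocyte markers compared 3 were higher in BM1st than in parental cells, and of 6 compared 2 were higher in BM2nd cells, beside 2.04% and 1.83% of all genes. Lyz2, the lysozyme of macrophages and neutrophils, was at 79.5, 1078 and 365, Laptm5 at 90.1, 367 and 184, Fcer1g at 95.4, 255 and 128, and Cd14 at 294, 501 and 363. Lyz2, Laptm5 and Fcer1g together made up 265 of the summed intensity in parental, 1699.9 in BM1st and 676 in BM2nd cells, and the other 10 markers 1190.3, 1434 and 1236. Tyrobp, Itgam, Cd3e, Mpo, S100a8 and S100a9 were not above background in any line. Of 7 osteoblast markers 3, 2 and 3 were above background (sums 845, 1213 and 850.4), with Sp7 at 103, 101 and 197 and Phex at 225, 611 and 149. Of 8 endothelial markers 3, 2 and 2 were above background (sums 2359, 1867 and 2571), and of 4 erythroid markers none was. The part of such cells in the Hoxc6 and Hoxc9 values was not tested, and more host cells and more RNA per cancer cell cannot be told apart in RNA of a whole culture.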

How the data were processed

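RNA of the parental, BM1st and BM2nd lines of LLC/luc was measured on Illumina mouse bead arrays in 1 colour, 1 array per line. The authors deposited linear intensities made with GenomeStudio 2011.1, the tool that the submitters' processing notes name. Normalization and background treatment are not stated in what was used here, but the sorted intensities of the arrays were equal to within 0.274, the mark of quantile normalization. Of 45281 probes, 34885 had 1 gene by the platform annotation, 18 had several and 10378 had no gene listed. Symbols were updated through RefSeq (GRCm38.p6). Where 1 of a pair of arrays was at background, the fold is a bound, the bright value over the dim value or the background, whichever is larger. Every HOX gene above background on an array is named with its values, and in 13 other lists (183 genes, 167 with a probe) up to 4 members were ranked by their BM2nd/parental ratio, of which those that bear on the text are named, while any other member named was picked with its values known. The HOX genes and the lists were chosen with earlier results of these data known. Alternatives varied the background level and filter, the probe rule, centring, background subtraction and the threshold. Software was Python 3.11.15 with numpy 2.4.6, pandas 2.3.3 and, for plots, matplotlib 3.10.9, and counting was tested on simulated data. No test was possible with 1 array per line, and precision is limited by how few arrays there are.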

Additional observations from a re-analysis of the deposited data

How the results depend on the processing

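Of 69 recomputed counts of HOX genes 59 were within 1.5 times the reported count. Requiring both arrays above background left Hoxc6 as the 1 higher gene against parental cells, in BM2nd and in BM1st cells, because Hoxc9 was not above background in parental cells. With the background subtracted, further genes passed the threshold: 1 gene was lower in BM2nd than in parental cells (Hoxb5), 3 were lower in BM1st than in parental cells (Hoxa2, Hoxb5 and Hoxd4) and 3 were higher in BM2nd than in BM1st cells (Hoxa2, Hoxa5 and Hoxd4). In the same order 4.83% and 5.48% of all genes were lower and 7.66% higher. At a threshold of 1.5-fold these counts were 1, 2 and 5, beside 6.13%, 6.37% and 8.54% of all genes. Centring on the median made 1 gene higher in BM2nd than in BM1st cells, Hoxa2. With background at the 99th percentile 3 limb-type genes were above it in parental cells, and at the 90th percentile Hoxa9 was above it in BM1st cells alone. No log2 ratio of the 9 genes followed under the alternatives, Hoxc6 and Hoxc9 among them, that was past the threshold changed sign. Hoxc6 was higher than in parental cells in both bone-derived lines under every alternative run, and Hoxc9 under all but the filter on both arrays. No paired analysis was possible because there was 1 array per line.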

Other observations

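Transcripts other than HOX genes that arise in the clusters were picked after their values were seen, apart from Evx1 and Evx2. Hottip, a long noncoding RNA at the posterior end of the Hoxa cluster, had intensities of 83.6, 80.8 and 93.5 in parental, BM1st and BM2nd cells, not above background in any. Hoxd3os1, an antisense transcript of the Hoxd cluster, had a probe at 113, 106 and 114, close to background, and another that was not above it. Evx1, a homeobox gene at the end of the Hoxa cluster, was at 99.5, 120 and 99.6, above background in BM1st cells alone, and Evx2, at the end of the Hoxd cluster, was not above background. Of the 13 genes with a probe that were listed as neighbours of the clusters, 9 were compared between BM2nd and parental cells and none was past the threshold. Among these Snx11 had a log2 ratio of -0.55, Skap2 of 0.52 and Snx10 of 0.38. Cbx5, a heterochromatin protein gene beyond the Hoxc cluster, was at 533, 279 and 635, a log2 ratio of 1.19 between BM2nd and BM1st cells. The other probes of Cbx5 were not above background in any line. Of 9 neighbours compared between these lines 1 was higher, beside 3.01% of all genes. Smug1 and Calcoco1, other genes listed beside the Hoxc cluster, were at 371, 441 and 364 and at 171, 277 and 199.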
